A study of Mus musculus with 12 samples.

Results

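The Wnt ligands, the Frizzled receptors and the secreted Wnt inhibitors of the mouse lung are described here, together with the Lrp co-receptors, the Lgr receptors and the pathway genes Axin2 and Lef1. The members were every gene whose array annotation carried 1 symbol beginning with Wnt, Fzd, Dkk or Sfrp and a digit, with Wif1, Axin2, Lef1, Lgr4, Lgr5, Lgr6, Lrp5 and Lrp6 added by name. This gave 46 genes of the 19938 genes with 1 symbol, chosen by name. There were 19 Wnt ligands, 10 Frizzled receptors, the opposite-strand transcript Fzd10os, which is not a receptor, 2 Lrp co-receptors, 3 Lgr receptors, 9 secreted inhibitors and the 2 genes Axin2 and Lef1. The lung RNA came from wild-type C57BL/6J mice aged 8 to 10 weeks, in 4 groups: females in hyperoxia (inspired oxygen above 95% for 48 h), females in room air, males in hyperoxia and males in room air. Each group had 3 Affymetrix Mouse Gene 1.0 ST arrays, and each array carried pooled RNA of 4 mice, and what varied within a group was therefore 1 pool against another.

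Wnt proteins are secreted lipid-modified ligands that bind Frizzled receptors and, in the β-catenin branch, the co-receptors Lrp5 and Lrp6 as well. Receptor engagement stops the destruction of β-catenin, which then acts in the nucleus with Tcf and Lef factors on targets such as Axin2, while a separate planar polarity branch runs from Frizzled through Vangl, Celsr and Prickle proteins. Sfrp proteins and Wif1 bind the ligands outside the cell, most Dkk proteins block the co-receptors, and R-spondins acting through Lgr receptors keep Frizzled proteins at the surface. In the lung the pathway is known for its part in specifying the organ in the embryo and in keeping alveolar type 2 cells in the adult.

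The values are log2 expression values per transcript cluster, the set of array probes assigned to 1 transcript. Array medians ran between 8.12 and 8.20, correlations between arrays between 0.969 and 0.995, and no 2 arrays held identical values. Xist read 12.52 to 12.85 on the female arrays and 6.63 to 7.77 on the male arrays, as the labels have it. The alveolar type 2 marker Sftpc averaged 13.79 in hyperoxia females, 14.02 in room air females, 13.77 in hyperoxia males and 14.04 in room air males. Pools differed in markers of squamous epithelium, a cell layer of the upper airway and oesophagus: the mean of 14 markers ran between 7.41 and 10.65, was highest in 1 hyperoxia pool (10.65) and 2 room air pools (10.31 and 9.82) of females, and none of the 14 genes was called in either sex. Dim clusters were defined by 1194 chemosensory receptor genes, which lung is not expected to use. A gene was dim where none of its 4 group means passed the 95th percentile of those genes, 7.35 on the log2 scale. By this rule 41 of the 46 members were above the dim range, and Wnt1, Wnt3, Wnt8b, Wnt16 and Lgr5 were not. Of all 35556 clusters, 24016 were above it. The shares of all clusters given below include the dim clusters, which were more frequent there than among the members.

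The first question was which members responded to 48 h of hyperoxia. A gene counted as called when its fold change was at least 1.4 and its limma p, adjusted by Benjamini-Hochberg over all 35556 clusters, was under 0.05. Under hyperoxia the ligand Wnt7a and the receptor Fzd4 rose in both sexes, and the ligand Wnt2 and the receptor Fzd7 fell in both sexes. Wnt3a and Fzd2 were called lower in females, and Dkk3 was called lower in males. In females 2 members rose and 4 fell, where 3.59% of all clusters rose and 2.93% fell. In males 2 members rose and 3 fell, where the shares of all clusters were 3.94% and 3.39%. The other 39 members were called in neither sex, and their log2 fold changes lay between -0.49 and 0.41. The median log2 fold change over the 46 members was -0.09 in females and -0.02 in males, against -0.02 and -0.00 over all clusters. In whole lung RNA, fewer cells of a type and less RNA per cell cannot be told apart, and this holds for every value below.

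With the sexes averaged into 1 contrast, 2 members rose and 5 fell (Wnt2, Wnt3a, Fzd2, Fzd7 and Dkk3), where 3.86% of all clusters rose and 3.26% fell. More members passed when changes smaller than 1.4-fold were admitted. By the adjusted p alone, 2 members were higher and 9 lower in females, where 9.08% and 8.62% of all clusters were. In males 3 were higher and 8 lower by the same criterion, where the shares of all clusters were 10.0% and 9.30%. In the averaged contrast 4 members were higher and 15 lower by the adjusted p alone, where 13.8% of all clusters were higher and 14.1% lower. In 2 members (Fzd4 and Wnt7a) every hyperoxia array was above every room air array of the same sex in both sexes, and in 13 members every hyperoxia array was below, where 11.6% and 11.5% of all clusters did so.

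**Figure D1:**
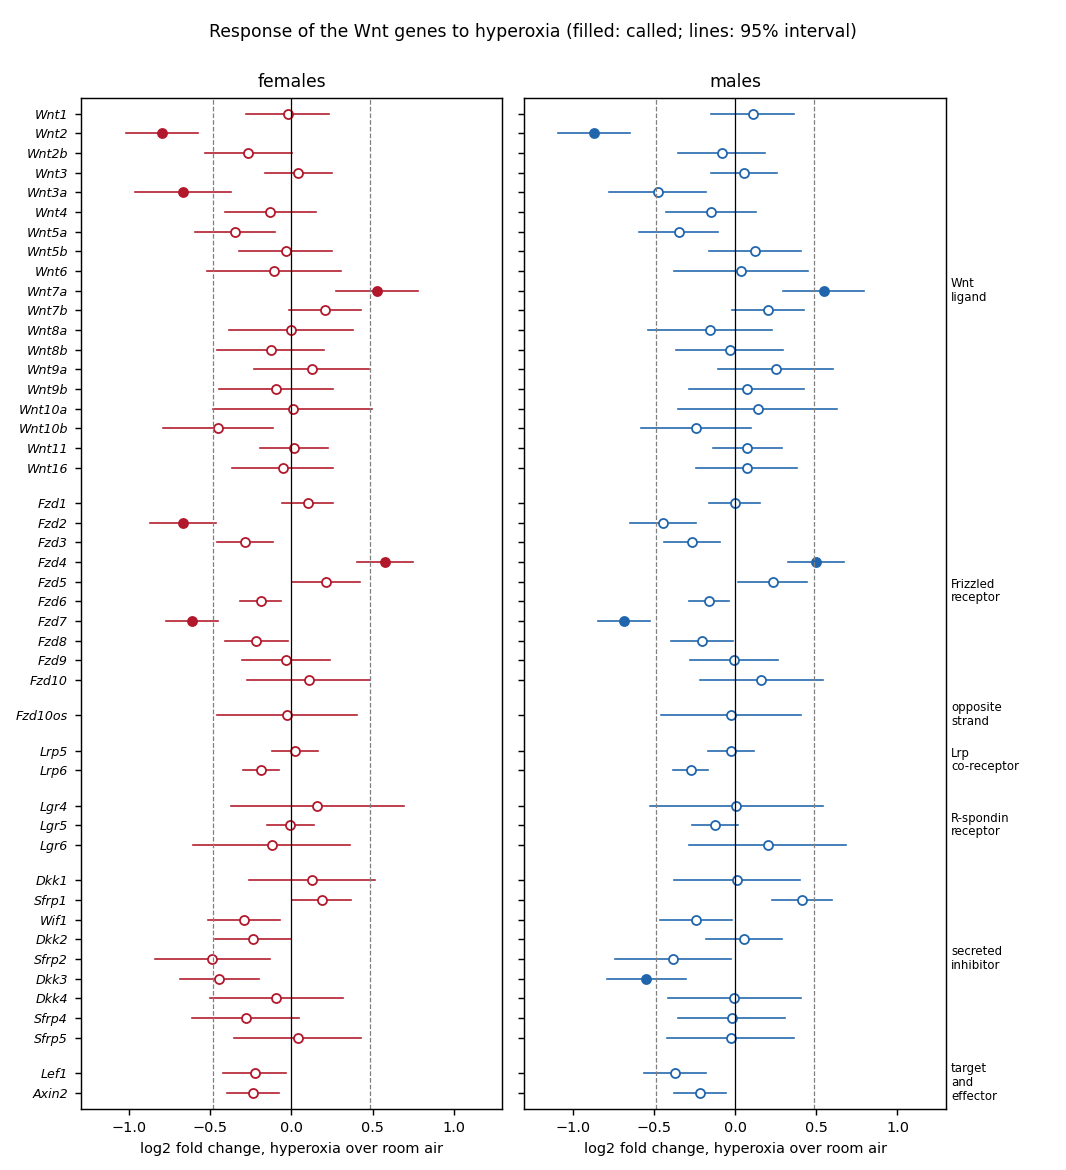
Log2 fold change (hyperoxia against room air) of the 46 members, females on the left and males on the right, grouped by role. Points are limma estimates and lines their 95% intervals, filled points were called, and dashed lines mark a fold of 1.4. The filled points are Fzd4 and Wnt7a to the right of zero and Wnt2 and Fzd7 to the left of zero in both panels, with Wnt3a and Fzd2 also filled to the left in females and Dkk3 in males.

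The 4 members called in both sexes are shown with their promoters, 250 bases before to 50 after the annotated start (RefSeq, GRCm38.p6, 300 bases each), since these are the windows in which genes that moved in opposite directions can be set side by side. Each is written 5′ to 3′ on the strand of the gene, with CpG dinucleotides in capitals. The windows are chr6:18030396-18030695 (minus strand) for Wnt2, chr1:59481897-59482196 (plus strand) for Fzd7, chr6:91411304-91411603 (minus strand) for Wnt7a and chr7:89404116-89404415 (plus strand) for Fzd4.
Wnt2: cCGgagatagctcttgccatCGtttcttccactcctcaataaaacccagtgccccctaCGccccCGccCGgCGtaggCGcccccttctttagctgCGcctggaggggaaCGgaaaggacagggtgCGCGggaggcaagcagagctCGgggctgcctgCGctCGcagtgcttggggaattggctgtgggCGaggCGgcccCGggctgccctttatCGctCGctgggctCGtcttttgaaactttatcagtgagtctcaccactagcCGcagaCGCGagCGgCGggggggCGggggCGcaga
Fzd7: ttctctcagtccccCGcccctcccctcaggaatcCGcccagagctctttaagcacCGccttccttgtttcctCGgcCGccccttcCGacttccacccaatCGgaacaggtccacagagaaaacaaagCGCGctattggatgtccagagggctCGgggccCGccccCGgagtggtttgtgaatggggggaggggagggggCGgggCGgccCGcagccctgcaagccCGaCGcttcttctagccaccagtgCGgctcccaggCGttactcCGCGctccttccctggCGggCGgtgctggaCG
Wnt7a: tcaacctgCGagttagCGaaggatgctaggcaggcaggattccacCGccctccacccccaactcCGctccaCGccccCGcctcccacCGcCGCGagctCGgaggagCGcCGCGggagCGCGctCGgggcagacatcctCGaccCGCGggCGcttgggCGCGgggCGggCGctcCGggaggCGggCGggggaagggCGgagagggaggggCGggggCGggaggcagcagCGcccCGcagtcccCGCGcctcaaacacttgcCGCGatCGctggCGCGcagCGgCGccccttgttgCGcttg
Fzd4: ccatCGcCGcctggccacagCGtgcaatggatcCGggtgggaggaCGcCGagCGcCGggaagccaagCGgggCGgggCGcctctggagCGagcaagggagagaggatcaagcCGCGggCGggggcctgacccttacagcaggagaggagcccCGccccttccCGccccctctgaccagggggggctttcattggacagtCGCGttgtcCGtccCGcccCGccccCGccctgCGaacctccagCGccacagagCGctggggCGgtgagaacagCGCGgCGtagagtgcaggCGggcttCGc
The windows hold 42 CpG in Wnt7a and 32 in Fzd4, which rose, and 27 in Wnt2 and 24 in Fzd7, which fell. The count does not follow direction, since the window of Wnt3a, called lower in females, holds 45 CpG. Over all 32851 RefSeq promoters of the same length the median was 7, with quartiles of 3 and 20, so that all 4 windows lie above the upper quartile. GC content was 76%, 72.7%, 65.7% and 66.7% in the windows of Wnt7a, Fzd4, Wnt2 and Fzd7, against a median of 52.7% over all promoters.

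Of the 46 members, 30 had a promoter in this table, in 36 windows. A member was counted if any of its windows held a match. The shares of all promoters count each window by itself, so these measures are not alike. The letters CTTTGAA or CTTTGAT, which Tcf and Lef factors are known to bind, were searched on both strands and occurred in windows of Dkk1, Wnt11 and Wnt5b, 3 of 30 members, and in 8.65% of all promoters. The letters TGACNNNGC, the core of the antioxidant response element, occurred in windows of 7 of 30 members (Fzd5, Fzd9, Lgr4, Wnt11, Wnt16, Wnt2b and Wnt5b) and in 12.4% of all promoters. Wnt11 and Wnt5b held both patterns, and whether the matches overlap was not examined. Neither pattern was found in the 4 printed windows, which says only that these letters are not there.

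Among the ligands, Wnt2 changed by the largest amount. Wnt2, a ligand made by lung mesenchyme that is needed to specify the lung in the mouse embryo, read 8.10, 8.38 and 8.22 in hyperoxia females, against 8.98, 9.06 and 9.05 in room air females. In males it read 8.29, 8.13 and 8.31 in hyperoxia, against 8.97, 9.31 and 9.06 in room air. All 6 hyperoxia arrays lay below all 6 room air arrays. Wnt2 fell 1.74-fold in females (log2 fold change -0.80, 95% interval -1.02 to -0.58, limma adjusted p = 3.05e-04) and 1.83-fold in males (-0.87, interval -1.09 to -0.65, adjusted p = 1.59e-04).

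Wnt3a, the ligand most often used to turn on β-catenin signalling, read 7.75, 8.30 and 8.00 in hyperoxia females, against 8.49, 8.86 and 8.71 in room air females. Its values in males were 8.37, 8.16 and 8.30 in hyperoxia, against 8.82, 8.73 and 8.73 in room air. The groups did not overlap in either sex, and the hyperoxia females were spread most widely (SD 0.27). The log2 fold change was -0.67 in females (limma adjusted p = 0.0055), where it was called, and -0.48 in males (adjusted p = 0.0298), just under the fold of 1.4.

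Wnt7a, known from the patterning of the limb and of the female reproductive tract, read 8.36, 8.76 and 8.85 in hyperoxia females, against 8.04, 8.23 and 8.12 in room air females. Males had 8.91, 8.92 and 8.97 in hyperoxia, against 8.30, 8.48 and 8.38 in room air. Hyperoxia arrays lay above room air arrays within each sex, and the lowest hyperoxia female array, at 8.36, was within the range of the room air males. Wnt7a rose by 0.53 on the log2 scale in females (limma adjusted p = 0.00813) and by 0.54 in males (adjusted p = 0.00627). In females the call rested on single arrays: the log2 fold change was 0.48 without room air replicate 1 or without hyperoxia replicate 2, and 0.43 without hyperoxia replicate 3, each under the fold threshold.

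The remaining 16 ligands were called in neither sex, with log2 fold changes between -0.45 and 0.25. Wnt4, known from the development of the kidney and of the female gonad, had the highest mean of the ligand clusters, though levels of different probe sets are not comparable. Wnt4 read 9.22, 8.97 and 8.84 in hyperoxia females, against 9.31, 9.11 and 9.0 in room air females, and 8.94, 8.90 and 9.02 in hyperoxia males, against 9.29, 8.89 and 9.12 in room air males. The groups overlapped in both sexes, and the log2 fold changes were -0.13 and -0.15 in females and males. A second Wnt4 cluster gave -0.07 in females and -0.05 in males.

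Wnt5a, the ligand best known for signalling outside the β-catenin branch, was at -0.35 in both sexes (limma adjusted p = 0.0558 for females and 0.0516 for males), with no overlap between the groups in either sex. In the averaged contrast its adjusted p was 0.00646, below the fold threshold. Wnt10b was at -0.45 in females and -0.24 in males, with overlapping arrays and an adjusted p of 0.0345 in the averaged contrast. Wnt7b, a ligand of lung epithelium, stood at 0.21 in females and 0.20 in males, with an averaged adjusted p of 0.0537.

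**Figure D2:**
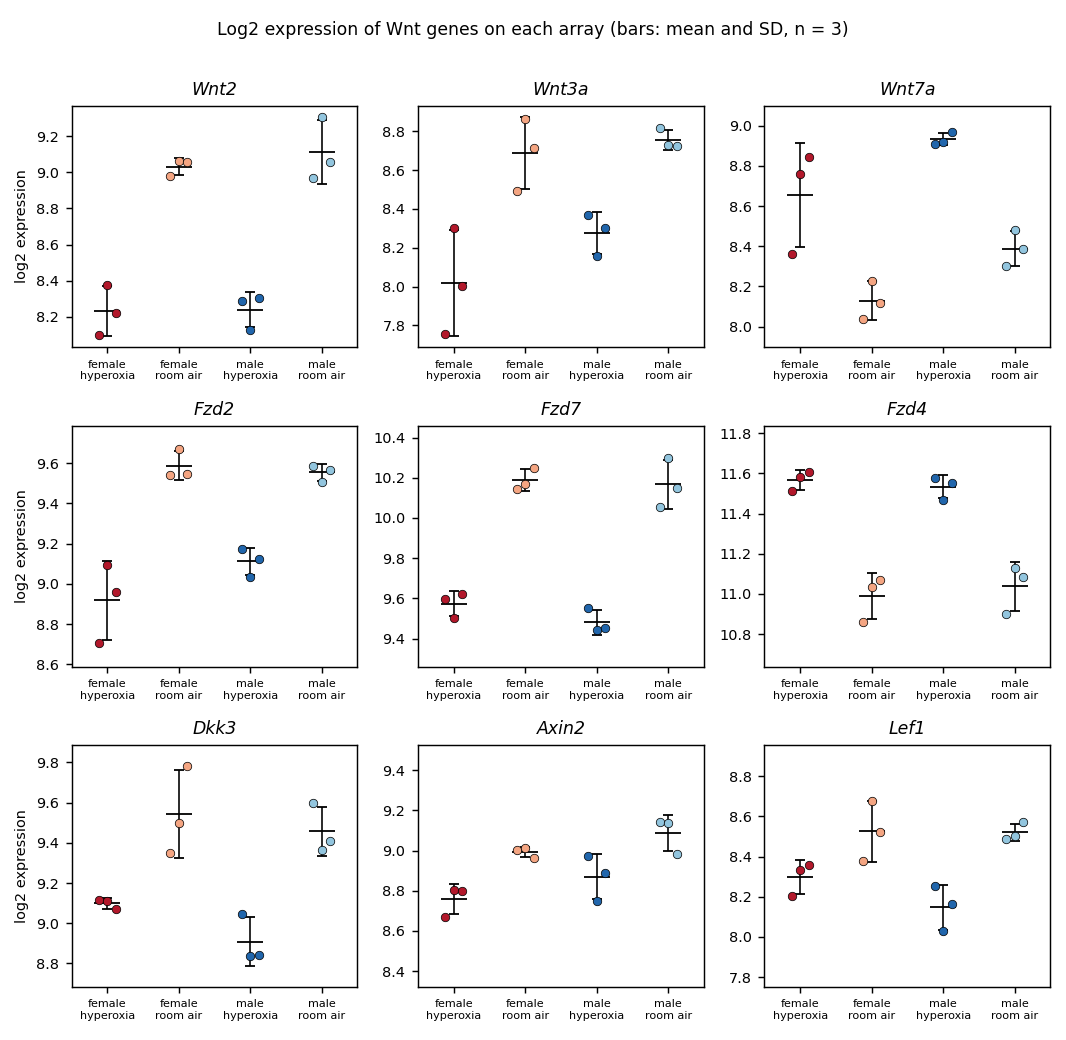
Log2 expression of 9 members on each array, by sex and exposure, with hyperoxia left of room air. Points are arrays and bars the mean and SD of 3 arrays, and each panel has its own vertical axis that does not start at zero. Wnt2 hyperoxia arrays read 8.10 to 8.38 and room air arrays 8.97 to 9.31, and Fzd4 hyperoxia arrays read 11.47 to 11.61 and room air arrays 10.86 to 11.13.

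Among the Frizzled receptors 1 rose and 2 fell. Fzd4, a receptor for Wnt ligands and for Norrin that is known from the growth of retinal vessels, read 11.51, 11.58 and 11.61 in hyperoxia females, against 10.86, 11.04 and 11.07 in room air females. In males it read 11.58, 11.47 and 11.55 in hyperoxia, against 10.90, 11.13 and 11.08 in room air. All 6 hyperoxia arrays were above all 6 room air arrays. Fzd4 rose 1.49-fold in females (log2 fold change 0.58, interval 0.40 to 0.75, limma adjusted p = 5.21e-04) and 1.41-fold in males (0.50, interval 0.32 to 0.67, adjusted p = 0.00122). The male value stood close to the fold threshold and was under it without room air replicate 1 (0.43) or hyperoxia replicate 1 (0.47).

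Fzd7, a receptor of the β-catenin branch known from stem cells of the mouse gut, read 9.60, 9.50 and 9.62 in hyperoxia females, against 10.14, 10.17 and 10.25 in room air females. In hyperoxia males it read 9.55, 9.44 and 9.45, against 10.06, 10.30 and 10.15 in room air males. Again the 2 exposures were fully apart across both sexes. Fzd7 fell 1.53-fold in females (log2 fold change -0.61, limma adjusted p = 2.11e-04) and 1.61-fold in males (-0.69, adjusted p = 9e-05).

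Fzd2, a close relative of Fzd7 in sequence, read 8.71, 9.09 and 8.96 in hyperoxia females, against 9.54, 9.67 and 9.55 in room air females. Male arrays held 9.17, 9.04 and 9.13 in hyperoxia, against 9.59, 9.51 and 9.57 in room air. The exposures did not overlap in either sex. The log2 fold change was -0.67 in females (limma adjusted p = 5.59e-04), where Fzd2 was called, and -0.44 in males (adjusted p = 0.00602), which missed the fold threshold.

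The other 7 Frizzled receptors lay between -0.28 and 0.23 and were called in neither sex. Fzd3, a receptor of the planar polarity branch, was at -0.28 in females and -0.27 in males, and Fzd6, which acts in the same branch, at -0.19 and -0.16, with no overlap of the exposures in either sex for both genes. Fzd8 was at -0.22 and -0.20. Fzd5 was the only other receptor whose averaged change was positive with an adjusted p under the threshold, at 0.22 (adjusted p = 0.0315). Fzd1, Fzd9 and Fzd10 lay between -0.03 and 0.16. The opposite-strand transcript Fzd10os was at -0.02 in both sexes.

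Neither Lrp co-receptor was called. Lrp5 read 10.67, 10.84 and 10.71 in hyperoxia females, against 10.68, 10.78 and 10.69 in room air females, and 10.82, 10.68 and 10.69 in hyperoxia males, against 10.76, 10.75 and 10.76 in room air males. The groups overlapped, and the log2 fold change was 0.02 in females (95% interval -0.12 to 0.16) and -0.03 in males (interval -0.17 to 0.11). Lrp6, which with Lrp5 forms the Wnt co-receptor pair, was at -0.19 in females and -0.27 in males, with limma adjusted p-values of 0.0237 and 0.00265 and no overlap between exposures, and so was past the adjusted p at a fold under 1.4.

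None of the 3 Lgr receptors, which bind R-spondins, was called, and their log2 fold changes lay between -0.13 and 0.20. Lgr5 was dim. Lgr4 varied more between pools than between exposures. It read 8.70, 7.66 and 8.15 in hyperoxia females, against 8.06, 7.66 and 8.31 in room air females, and 7.78, 7.94 and 7.64 in hyperoxia males, against 7.78, 7.96 and 7.61 in room air males. The highest female array of each exposure, at 8.70 in hyperoxia and 8.31 in room air, was among the 3 pools with the highest squamous marker means, whose Lgr4 values ran between 8.06 and 8.70. Hyperoxia replicate 3 of females, outside these pools with a marker mean of 8.36, also lay in that range, at 8.15. The part of squamous epithelium in these values was not tested. Leaving out those 3 pools keeps 1 room air array and 2 hyperoxia arrays of females, and limma then takes the lone array to vary like the other groups. On that footing 2 members were called higher and 4 lower in females.

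**Figure D3:**
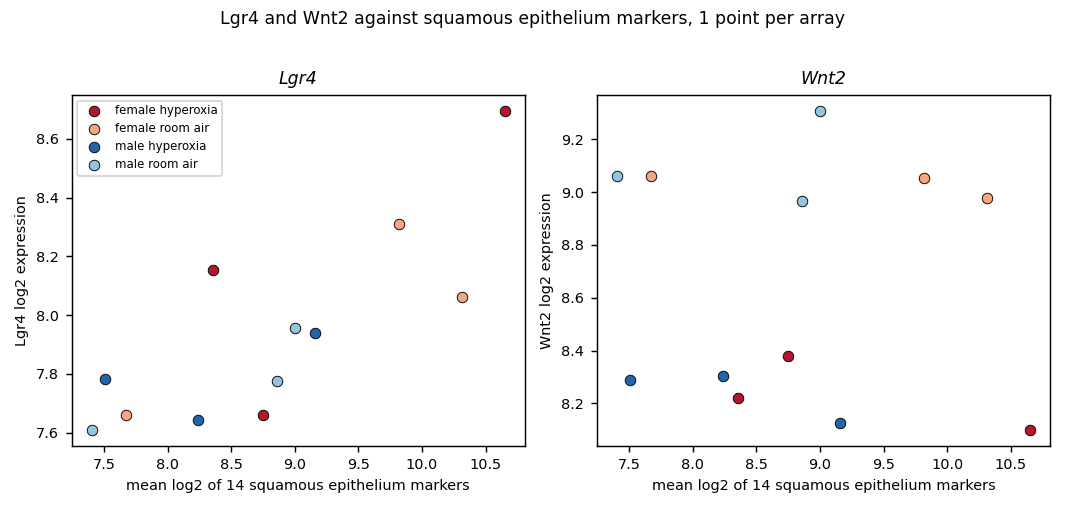
Log2 expression of Lgr4 (left) and Wnt2 (right) against the mean log2 value of 14 squamous epithelium markers, 1 point per array, coloured by sex and exposure. Lgr4 is highest (8.70) on the array with the highest marker mean (10.65), and reads 8.15 on a hyperoxia female array with a marker mean of 8.36. The Wnt2 values of hyperoxia and room air arrays stay apart along the whole marker axis.

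Of the 9 members grouped by name as secreted inhibitors, 1 was called in 1 sex. The grouping does not show that each of them inhibits Wnt signalling. Dkk3, a Dickkopf family member, read 9.11, 9.11 and 9.07 in hyperoxia females, against 9.35, 9.50 and 9.78 in room air females. Hyperoxia males had 9.05, 8.84 and 8.84, against 9.60, 9.36 and 9.41 in room air males. The exposures did not overlap in either sex. The log2 fold change was -0.45 in females (limma adjusted p = 0.0169), under the fold threshold, and -0.55 in males (adjusted p = 0.00502), where Dkk3 was called. In males the value was -0.48 without room air replicate 1 and was then not called, and in females it was -0.54 without room air replicate 1 and was then called.

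Sfrp1, a secreted protein that binds Wnt ligands and had the highest mean of the inhibitor clusters, read 9.93, 9.66 and 9.86 in hyperoxia females, against 9.65, 9.55 and 9.68 in room air females. In males it read 9.87, 9.85 and 9.92 in hyperoxia, against 9.58, 9.48 and 9.35 in room air. The exposures overlapped in females, where the lowest hyperoxia array lay between room air arrays, and were apart in males. The log2 fold change was 0.19 in females (limma adjusted p = 0.179) and 0.41 in males (adjusted p = 0.00519), below the fold threshold in both.

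Sfrp2, of the same family, was at -0.49 in females and -0.38 in males, with adjusted p-values of 0.0647 and 0.146 in limma and 0.0149 in the averaged contrast. Wif1, which also binds Wnt ligands, was at -0.29 and -0.24, with an averaged adjusted p of 0.0151. Both had hyperoxia arrays below room air arrays in each sex, narrowly in males. Dkk1, the best known blocker of Lrp5 and Lrp6, was at 0.13 and 0.01 with overlapping arrays, and Dkk2, Dkk4, Sfrp4 and Sfrp5 overlapped in both sexes as well.

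Axin2, a scaffold of the β-catenin destruction complex that is itself a target of the pathway and is widely used as its readout, read 8.67, 8.80 and 8.80 in hyperoxia females, against 9.0, 9.01 and 8.97 in room air females. In males it read 8.97, 8.75 and 8.89 in hyperoxia, against 9.14, 9.14 and 8.98 in room air. Hyperoxia arrays were below room air arrays in each sex, narrowly in males. The log2 fold change was -0.24 in females (limma adjusted p = 0.0483), -0.22 in males (adjusted p = 0.0661) and -0.23 with the sexes averaged (adjusted p = 0.00691), below the fold threshold throughout.

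Lef1, a DNA-binding partner of β-catenin that T lymphocytes also express, read 8.20, 8.33 and 8.36 in hyperoxia females, against 8.38, 8.68 and 8.52 in room air females. Male values were 8.25, 8.03 and 8.16 in hyperoxia, against 8.49, 8.50 and 8.57 in room air. The exposures were apart in both sexes, narrowly in females. The log2 fold change was -0.23 in females (limma adjusted p = 0.115) and -0.37 in males (adjusted p = 0.0124), so that Lef1 was not called. Of 5 T cell markers measured, none was called in females and 2 were lower in males (Cd2 and Cd3g), and the mean marker level ran between 8.36 and 8.54 in hyperoxia females, 8.52 and 8.84 in room air females, 8.14 and 8.36 in hyperoxia males and 8.48 and 8.61 in room air males. The part of T cells in the Lef1 values was not tested.

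The second question was whether the response differed between males and females. The interaction (log2 fold change in males minus that in females) was called for none of the 46 members and for 0% of all clusters in limma, and 0 members had an unadjusted p under 0.05, against 516 of the 35556 clusters. Over the members it lay between -0.15 and 0.32, with adjusted p-values of 1.00. For Fzd2 it was 0.22 (95% interval -0.06 to 0.51), for Wnt3a 0.19 (interval -0.23 to 0.61) and for Dkk3 -0.10 (interval -0.45 to 0.24). These 3 genes were called in 1 sex and not in the other, but for none of them did the difference itself pass the test, and the intervals are wide enough to hold a difference close to the size of the changes. For the genes called in both sexes the intervals were -0.38 to 0.24 for Wnt2, -0.30 to 0.15 for Fzd7, -0.33 to 0.16 for Fzd4 and -0.34 to 0.37 for Wnt7a.

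Males and females were also compared within each exposure. No member was called between males and females in hyperoxia, where 0.0169% of all clusters were called, or in room air, where 0.0141% were. At an unadjusted p under 0.05 there was 1 member in hyperoxia (Wnt7a) and 3 in room air (Wnt7a, Lgr5 and Sfrp4), against 1160 and 869 clusters. Wnt7a was higher in males by 0.28 in hyperoxia and by 0.26 in room air on the log2 scale, with every male array above every female array of the same exposure, and limma adjusted p-values of 0.945 and 1.00.

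The wider pathway was read from 6 lists of other Wnt genes, of which 81 of 83 genes were measured and 7 were dim. In females 2 of the 81 rose and 7 fell, and in males 3 rose and 6 fell, by the same calls, for which the shares of all clusters were 3.59% and 2.93% in females and 3.94% and 3.39% in males. The median log2 fold change of the 81 genes was -0.05 in each sex. None was called in the interaction.

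Of 19 extracellular genes 1 was called. Cthrc1, a secreted protein that in mice favours the planar polarity branch, read 7.62, 7.75 and 7.55 in hyperoxia females, against 8.22, 8.20 and 8.09 in room air females, and 7.95, 7.77 and 7.92 in hyperoxia males, against 8.32, 8.14 and 8.39 in room air males. The exposures did not overlap. It fell by 0.53 on the log2 scale in females (limma adjusted p = 0.00131), and the male value was -0.40 (adjusted p = 0.0061). With 1 room air array left in females after the 3 pools richest in squamous markers were left out, the female value was -0.55 (adjusted p = 0.0768). Wls and Porcn, with which cells secrete and lipidate Wnt proteins, lay between 0.03 and 0.07. Rspo1, an R-spondin, was at -0.39 in females and -0.32 in males. Ndp, which encodes the Fzd4 ligand Norrin, was dim, as were Rspo2, Rspo3 and the Sfrp-like inhibitor gene Frzb.

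Of 8 receptors and turnover genes 1 was called. Tspan12, a membrane protein that strengthens Norrin signalling through Fzd4, fell where Fzd4 rose. It read 9.54, 9.50 and 9.63 in hyperoxia females, against 10.03, 10.21 and 10.38 in room air females, and 9.64, 9.47 and 9.51 in hyperoxia males, against 10.17, 10.38 and 10.19 in room air males. All 6 hyperoxia arrays were below all 6 room air arrays, and the log2 fold change was -0.65 for females and -0.71 for males (limma adjusted p = 9.18e-04 and 4.86e-04). Rnf43, a ubiquitin ligase that removes Frizzled proteins from the surface, was at -0.48 in females and -0.40 in males, below the fold threshold, and its partner Znrf3 was at -0.01 and -0.04.

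Inside the cell, none of 19 cytoplasmic genes was called. Ctnnb1, which encodes β-catenin, was at -0.02 in females and 0.01 in males. Of 14 nuclear genes Tle2, a Groucho-type corepressor, was called, at -0.55 in females and -0.49 in males (limma adjusted p = 7.79e-04 and 0.00148), the male value lying just past the fold threshold of 0.485 on the log2 scale.

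**Figure D4:**
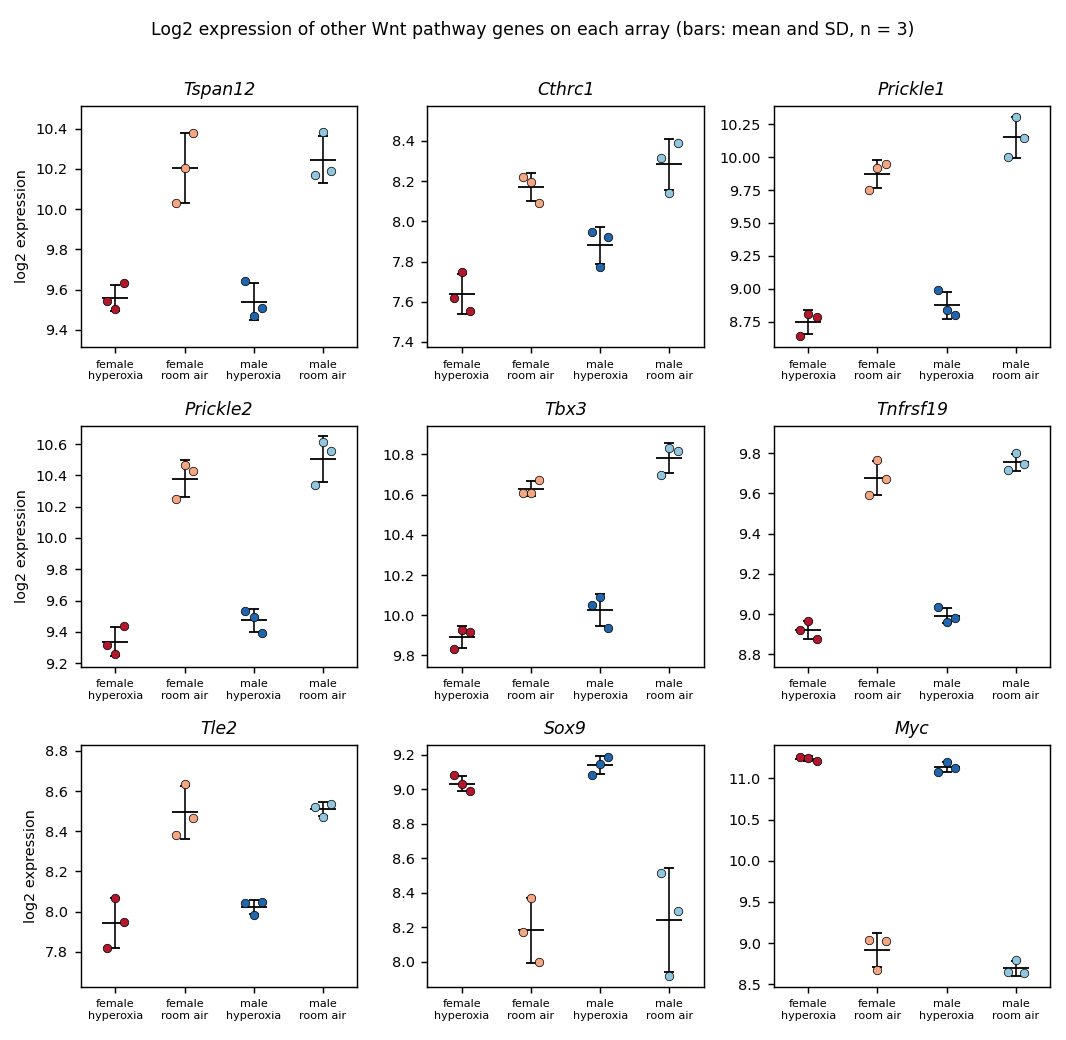
Log2 expression of 9 other Wnt pathway genes on each array, by sex and exposure, with hyperoxia left of room air. Points are arrays and bars the mean and SD of 3 arrays, and the vertical axes differ and do not start at zero. The hyperoxia and room air arrays are apart in every panel, with Myc and Sox9 higher and the other 7 lower in hyperoxia.

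Of the 11 measured target genes, 2 rose and 2 fell in females, and 3 rose and 2 fell in males. Myc, a growth regulator with many inputs besides Wnt, read 11.26, 11.25 and 11.21 in hyperoxia females, against 9.04, 8.68 and 9.03 in room air females, and 11.08, 11.20 and 11.13 in hyperoxia males, against 8.64, 8.80 and 8.64 in room air males. The exposures were far apart, at a log2 fold change of 2.32 (females) and 2.44 (males) (limma adjusted p = 4.52e-07 and 3.04e-07). Sox9, a transcription factor of distal lung epithelium in the embryo, rose by 0.85 and 0.90. Against the 1 room air array left in females without the 3 pools richest in squamous markers, the female value of Sox9 was 0.64 (adjusted p = 0.157). Tbx3, a T-box repressor, and Tnfrsf19, a membrane receptor also known as Troy, fell in both sexes, Tbx3 by 0.74 in females and 0.76 in males and Tnfrsf19 by 0.76 in each. Ccnd1, which encodes cyclin D1 and was singled out after its values were seen, was called higher in males (0.52) and was at 0.42 in females.

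The planar polarity list held the largest falls of the 6 lists. Prickle1, a cytoplasmic core component of planar polarity, read 8.64, 8.81 and 8.79 in hyperoxia females, against 9.75, 9.92 and 9.95 in room air females, and 8.99, 8.83 and 8.80 in hyperoxia males, against 10.00, 10.31 and 10.14 in room air males. Its relative Prickle2 read 9.32, 9.26 and 9.44 in hyperoxia females, against 10.25, 10.47 and 10.43 in room air females, and 9.53, 9.49 and 9.39 in hyperoxia males, against 10.34, 10.61 and 10.56 in room air males. All 6 hyperoxia arrays of either gene lay below its 6 room air arrays. Prickle1 fell by 1.13 on the log2 scale in females and by 1.28 in males (limma adjusted p = 2.61e-05 and 1.06e-05), and Prickle2 fell by 1.04 and 1.03 (adjusted p = 3.11e-05 and 2.7e-05). The other 8 genes of the list were not called. Vangl2, a membrane core component, stood nearest to the threshold at -0.48 in both sexes.

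Markers of several cell types also differed between the exposures. Of 10 endothelial markers 5 fell in each sex, and their mean level ran between 10.99 and 11.07 in hyperoxia females, 11.74 and 11.84 in room air females, 11.07 and 11.11 in hyperoxia males and 11.78 and 11.93 in room air males. The median log2 fold change of these 10 markers was -0.55 in females and -0.57 in males, and single markers differed widely. Aplnr was at -2.40 in females and -2.53 in males, and it enters the means above. The endothelial marker Cdh5 averaged 13.06 in hyperoxia females, 13.07 in room air females, 13.14 in hyperoxia males and 13.10 in room air males and was not called. Of 9 fibroblast markers 2 fell in females and 1 in males, with means between 11.42 and 11.43 in hyperoxia females, 11.59 and 11.65 in room air females, 11.42 and 11.45 in hyperoxia males and 11.56 and 11.61 in room air males. Of 7 alveolar type 2 markers 5 fell in females and 3 in males, while 2 of 7 smooth muscle markers rose in females and 3 in males. Of 5 neutrophil markers none was called in females and 4 fell in males, with means between 8.31 and 8.84 in hyperoxia females, 8.52 and 9.38 in room air females, 7.95 and 8.16 in hyperoxia males and 9.02 and 9.74 in room air males. Of 4 B cell markers measured none was called in females and 3 fell in males. No gene of these lists was called in the interaction. The part of cell makeup in the values of Wnt2, Fzd4, Tspan12 and the other members was not tested.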

How the data were processed

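Lung RNA of 12 pools was measured on 12 arrays. The authors deposited log2 values per transcript cluster, made from the probe signals by Robust Multichip Average (background correction, quantile normalization, median polish) of unstated version. These values were used as deposited, with no filter, and clusters were named from the platform annotation. Where a gene had more than 1 cluster, the brightest was taken. The 4 group means were fitted together for all 35556 clusters with limma 3.58.1 in R 4.3.3, and p-values were adjusted over all clusters within a contrast. The contrast with the sexes averaged was added after the data were seen. The members and the lists were chosen with earlier results of these data known. Named with values on every array were members called in either sex, Axin2 and Lef1. The brightest clusters of the ligands, Frizzled receptors, secreted inhibitors and Lrp co-receptors were named as well. Of the other Wnt genes, up to 4 called per list with the largest change were named. Lgr4 met none of these criteria and was singled out for the variation between pools that its values showed. The procedure was run on simulated data with independent noise in each cluster and the same change in both sexes. Variation shared between clusters within a pool was not simulated, so the run does not test the calls against it.

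Replicates are separate pools, and their number limits the precision of every value. Whether replicate numbers pair the pools was checked from the deviations from the group means. Between same-numbered hyperoxia and room air pools these correlated at 0.28, 0.70 and 0.46 in females and at -0.17, 0.33 and 0.23 in males. By a limit of 0.1, every same-numbered pair passed in females only. Between differently numbered pools the correlations ran between -0.74 and 0.58 in females and between -0.46 and 0.40 in males. The values therefore do not settle whether the numbers pair the female pools. Batches of scanning or slides were not tested, as no source used here gives them. The alternatives were a replicate block, each sex alone, other variance models and weights, 2 further normalizations, other cluster choices and thresholds, squamous markers as a covariate, and leaving out single arrays or the 3 pools richest in squamous markers.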

Additional observations from a re-analysis of the deposited data

How the results depend on the processing

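No alternative reversed the direction of a called gene. The cause of each change below was not tested, apart from the thresholds, where the calls change by construction. With each sex fitted alone, 1 member was higher in females, since Wnt7a (log2 fold change 0.53) had an adjusted p of 0.0629. After a further quantile normalization 1 member was higher in males, since Fzd4 was at 0.46. With no fold threshold, 9 members were lower in females and 8 in males, 8 other Wnt genes were higher and 24 lower in females, 9 were higher and 22 lower in males, and 4 members were higher and 15 lower with the sexes averaged. At a fold of at least 2, 0 members were called in either direction in either sex or with the sexes averaged, and of the other Wnt genes 1 was higher and 2 were lower in each sex. Without the 3 pools richest in squamous markers, an alternative chosen after seeing the data, female room air kept 1 array, taken to vary like the other groups, and 1 other Wnt gene was higher in females. A call lost there is not evidence of a smaller change. Cthrc1 missed the fold threshold in females after the further quantile normalization (-0.48). Array weights gave male room air replicate 3 almost no weight. Among the female arrays, room air replicate 1 weighed 23.26 and hyperoxia replicate 3 weighed 21.77, against 1.41 to 4.04 for the others. The female fold changes come from the female arrays only, and so lean on these heavily weighted arrays. With the weights, Tspan12 in females (-0.47) and Tle2 in both sexes (-0.48) missed the fold threshold.

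On leaving out each array in turn, 1 to 2 members were higher and 4 to 5 lower in females, 1 to 2 higher and 2 to 3 lower in males, and 2 higher and 4 to 6 lower with the sexes averaged, while 0 were called in the interaction or between the sexes. The other Wnt genes had 2 higher and 6 to 10 lower in females, and 3 higher and 5 to 7 lower in males. Tle2, close to the fold threshold, lost its call in females without room air replicate 2 (-0.48), and in males without room air replicate 1 (-0.48), room air replicate 3 (-0.47) or hyperoxia replicate 2 (-0.47).

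With the replicate number as a block, 2 members were higher and 4 lower in females and 2 were higher and 3 lower in males, and no call of a named gene changed. In females fitted alone with the block, chosen after seeing the data, 2 members were higher and 5 lower, the fifth being Sfrp2. Scaling moved the median of all clusters by at most 0.043 on the log2 scale.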

Other observations

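Among the other Wnt genes, several passed the adjusted p of limma in both sexes at a fold under 1.4. These were singled out after their values were seen. By the adjusted p alone, 8 of the 81 genes were above and 24 below their room air level in females, where 9.08% and 8.62% of all clusters were. In males 9 were above and 22 below, where the shares of all clusters were 10.0% and 9.30%. The β-catenin cofactor Bcl9 was at -0.39 on the log2 scale in females and -0.40 in males, its relative Bcl9l at -0.33 and -0.37, and Pygo1, which binds Bcl9 proteins, at -0.40 and -0.32. Btrc, the ubiquitin ligase subunit that recognises phosphorylated β-catenin, was at -0.39 and -0.40, and the receptor Lrp4 at -0.41 and -0.43. On the other side, the destruction complex scaffold Axin1 was at 0.28 in females and 0.21 in males, the kinase gene Gsk3a at 0.22 in each, Dvl1, which relays the Frizzled signal, at 0.25 and 0.28, the inhibitor Nkd1 at 0.28 and 0.36, and the receptor Ror1 at 0.33 and 0.28.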
